A study of Mus musculus with 87 samples.

Results

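The genes described here are 39 mouse genes that are expressed from either the maternal or the paternal copy in at least some tissues, the imprinted genes. They were chosen by name, and each was found through its Ensembl identifier in the deposited expression tables, whose 43346 Ensembl genes were otherwise used only as the background. Of the 39 genes, 38 were found, in 12 groups of which most are chromosomal clusters, and Peg13 was not analysed here.

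An imprinted gene carries a mark, usually DNA methylation laid down in the egg or the sperm, that tells its maternal and paternal copies apart, so that expression comes mainly from a single copy. Most imprinted genes lie in clusters in which a methylated control region acts on several neighbours at once, often through a long non-coding RNA or through the insulator protein CTCF, which binds the unmethylated copy between H19 and Igf2. Paternally expressed members such as Igf2 are known mainly for promoting growth of the embryo, and maternally expressed members such as Igf2r, Grb10 outside the brain, Cdkn1c and Phlda2 for restraining it. All mice were of the FVB strain, so maternal and paternal reads could not be separated, and every value below is the sum of both copies.

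The series tested what follows when a boundary between neighbouring topologically associating domains, the self-contacting units of chromosome folding, is deleted from the mouse genome. Bulk RNA-seq was available for 64 libraries of whole tissue from FVB embryos at embryonic day 11.5, 30 from wild-type and 34 from homozygous embryos of 7 deletion lines named B2 to B8. Heart and lung were taken in line B2, face and heart in B3 and B5, gut and midbrain in B4, face and heart in B6 and B7, and forebrain and neural tube in B8. Each deletion had been made by CRISPR/Cas9 in fertilised FVB eggs, and per the study's methods the wild-type embryos were littermates of the homozygous ones. The B2 groups held 4 hearts or 6 lungs, the lungs being labelled male or female in equal number in each genotype. Every other group held 2 libraries, and B6 and B7 had no wild-type heart here, so their homozygous hearts were set against the 8 wild-type hearts that the lines B2, B3 and B5 supplied. In these comparisons line and genotype cannot be told apart. The labels do not say whether a library came from 1 embryo or from a pool.

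The libraries held 8391553 to 31793440 counts. The defining markers of each labelled tissue were higher in its own libraries than the median of the other libraries. Hearts gave the clearest case, with summed levels of Myh6, Nppa, Tnnt2, Actc1 and Nkx2-5 of 5970 to 23823 CPM (counts scaled to a common library size), against at most 295.7 in any other library. Gut markers, at 167.2 to 256.8 CPM in gut, reached 396.3 in wild-type lung E5420_07. Neural tube markers, at 163.9 to 207.6 CPM in neural tube, reached 258.4 in wild-type midbrain A40. The gut libraries also held liver RNA, with 7 liver markers summing to 4514 and 4659 CPM in wild-type gut. The B2 lungs stood apart from all other libraries in that 11.3% to 14.05% of their counts were mitochondrial, except for wild-type lungs E5420_07 with 0.362% and E5420_09, the shallowest library, with 1.54%. E5420_09 had a scaling factor for its library size, from the trimmed mean of M-values (TMM), of 0.124, E5420_07 of 0.677 and the other 10 lungs of 0.862 to 0.929. In chi-square per gene E5420_09 differed from the other 5 wild-type lungs by 1229 to 1829 and E5420_07 from the remaining 4 by 557 to 639, where those 4 differed from each other by 6.27 to 19.96. Without both, 32 imprinted genes were called in lung against heart, where 24 were with them. The share of all genes called without both is not given here. Homozygous midbrain A39 of B4 held 409 CPM of forebrain markers and 207 of midbrain markers, against 115 to 135 and 320 to 437 in the other 3 midbrains. Hearts of B2 also differed from those of B3 and B5 in several imprinted genes, so the 2 sets of hearts are given separately. In whole tissue, fewer cells of a type and less RNA per cell cannot be told apart.

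The start regions of 4 imprinted genes on which the tissue differences below turned are shown as RefSeq gives them for GRCm38.p6, from 250 bases before the start of the gene to 50 bases after it, read 5′ to 3′ on the strand of the gene. Peg3 (chr7:6730370-6730669, minus strand) is shown because Usp29 starts on the other strand only 164 bases away, and the capitals mark the 263 bases that its window shared with that of Usp29. In the other 3 windows the capitals mark the motif TGCCGC, here always in its other-strand form GCGGCA, which is the core of the sequence known to be bound by ZFP57 when methylated. They are those of Zim1 (chr7:6696383-6696682, minus strand), the maternally expressed neighbour of Peg3, of Nnat (chr2:157559828-157560127, plus strand) and of Mest (chr6:30737800-30738099, plus strand).
Peg3: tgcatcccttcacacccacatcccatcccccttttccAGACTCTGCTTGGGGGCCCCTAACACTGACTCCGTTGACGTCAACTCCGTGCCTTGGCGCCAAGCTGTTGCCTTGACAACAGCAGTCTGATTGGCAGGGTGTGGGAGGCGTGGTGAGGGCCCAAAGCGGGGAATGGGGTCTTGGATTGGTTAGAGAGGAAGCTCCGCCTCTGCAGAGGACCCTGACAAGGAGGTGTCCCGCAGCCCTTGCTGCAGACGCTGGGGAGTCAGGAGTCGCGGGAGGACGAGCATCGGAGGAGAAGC
Zim1: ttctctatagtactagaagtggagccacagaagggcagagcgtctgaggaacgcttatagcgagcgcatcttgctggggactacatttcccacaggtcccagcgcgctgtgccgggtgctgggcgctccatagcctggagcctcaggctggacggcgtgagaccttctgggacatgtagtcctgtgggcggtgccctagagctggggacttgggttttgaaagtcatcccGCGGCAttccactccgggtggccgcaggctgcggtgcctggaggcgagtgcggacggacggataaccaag
Nnat: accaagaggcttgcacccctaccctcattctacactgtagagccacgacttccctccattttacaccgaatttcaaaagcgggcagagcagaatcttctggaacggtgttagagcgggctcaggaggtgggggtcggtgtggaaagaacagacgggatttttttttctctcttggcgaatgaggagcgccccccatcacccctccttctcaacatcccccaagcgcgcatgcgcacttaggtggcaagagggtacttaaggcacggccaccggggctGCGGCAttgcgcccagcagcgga
Mest: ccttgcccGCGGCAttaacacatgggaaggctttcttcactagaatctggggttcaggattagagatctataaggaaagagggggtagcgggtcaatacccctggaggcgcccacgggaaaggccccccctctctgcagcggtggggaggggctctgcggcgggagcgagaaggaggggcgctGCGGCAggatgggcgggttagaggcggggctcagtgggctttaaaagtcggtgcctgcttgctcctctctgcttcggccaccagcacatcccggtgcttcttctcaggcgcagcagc

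The motif was present on either strand in 10 of the 48 windows of the 31 members that RefSeq gave a window for (20.8%), against 11.6% of all 32851 windows of that length. The windows of the members also held more CpG dinucleotides, with a median of 10.5 against 7 for all windows, so that the motif, which contains a CpG, had more chances to occur in them. The match is a description of the sequence only. H19 and Igf2, the members with the most counts, each contain a microRNA hairpin on their own strand. Its 2 mature products are shown with the seed (bases 2 to 8) in capitals, because they are further products of the same transcripts. Their own levels were not measured in these libraries.
mmu-miR-675-5p (in H19): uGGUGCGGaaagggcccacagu
mmu-miR-675-3p (in H19): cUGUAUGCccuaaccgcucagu
mmu-miR-483-5p (in Igf2): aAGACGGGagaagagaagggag
mmu-miR-483-3p (in Igf2): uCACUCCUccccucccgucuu

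Per unit of transcript length, H19 was the most abundant imprinted RNA in heart, lung, gut, face and neural tube. Its median as TPM (counts scaled by transcript length and library size) was 6341 in the wild-type hearts of B2, 5982 in those of B3 and B5, 4582 in the neural tube and 4316 in the gut, which placed it among the 14 highest of all genes in each. In the midbrain and forebrain the place was taken by Nnat, which encodes a small membrane proteolipid of neurons, at 1732 and 2033 TPM, with Gnas next at 1597 and 1466 TPM. H19 stood at 643 and 529 TPM there. Imprinted genes together held 3.06% of all counts in the wild-type hearts of B2 (median), and 0.855% and 0.877% in midbrain and forebrain. Most of that gap came from H19 and Igf2, which together held 1.98% of the counts in hearts of B2 and 0.119% in forebrain.

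Every other comparison below uses CPM scaled by TMM over the 64 libraries. Over the 8 wild-type columns, in which the hearts of B2 and the hearts of B3 and B5 count separately, 10 of the 38 genes had their highest median in the hearts of B2, 10 in lung, 6 in gut, 5 in the hearts of B3 and B5, 5 in midbrain, 1 in face (Nnat) and 1 in forebrain (Peg12). By CPM no gene was highest in the neural tube. The lowest medians fell in the forebrain for 10 genes, in the hearts of B2 for 10 and in the midbrain for 9. The widest spans between the highest and the lowest median were 53.5-fold for Slc22a18, 50.9-fold for Zim1, 37.0-fold for Kcnq1ot1 and 35.7-fold for Rtl1, and the narrowest was 1.38-fold for Trappc9, 1.72-fold for Zrsr1 and 1.82-fold for H13. By TPM the tissue with the highest median was the same for 20 of the 38 genes, and the one with the lowest for 24. Rian, Mirg, Peg3, Grb10, Gnas and Zrsr1 were highest in the neural tube by TPM. Of the 10 genes highest in lung by CPM, only Kcnq1ot1 and Rtl1 were also highest there by TPM. The order of tissues is a description of these libraries, since most neighbouring tissues in it overlapped.

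**Figure D1:**
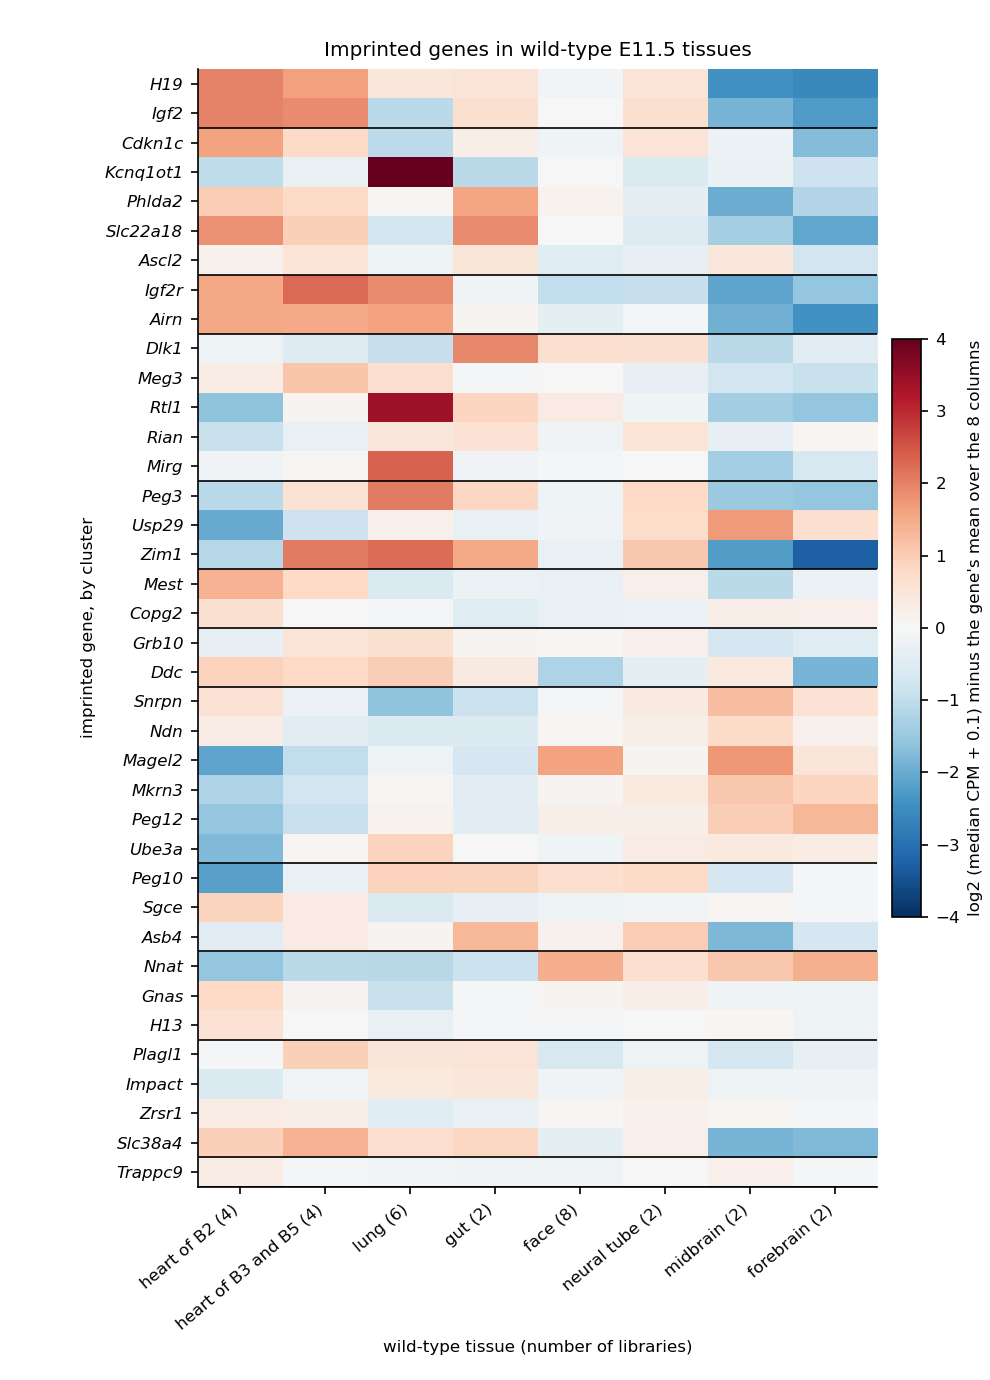
Median level of each of the 38 imprinted genes (rows, by cluster, separated by lines) in the wild-type libraries of each tissue (columns, with the number of libraries), as log2 of the median CPM plus 0.1, minus the mean of the gene over the 8 columns. H19, Igf2, Igf2r and Slc38a4 are blue in the midbrain and forebrain columns, the Snrpn cluster and Nnat are red there, and the lung column is darkest red for Kcnq1ot1, Rtl1 and Mirg.

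Wild-type tissues were compared in 5 contrasts with edgeR's quasi-likelihood test, with Benjamini-Hochberg adjusted p under 0.05 as the call. The first sets the 3 neural tissues (forebrain, midbrain and neural tube) against the other 4. The fit used all 30 wild-type libraries, and the contrast weighs each tissue equally. Of the 38 genes tested, 7 were called higher in the neural tissues and 20 lower, while 22.2% of all genes tested were called higher and 25.4% lower. The median log2 fold change was -0.46 over the 38 genes and -0.06 over all genes. For all 38 genes the libraries of the neural and of the other tissues overlapped. The 7 called higher were Nnat, Usp29 and 5 members of the Snrpn cluster (Snrpn, Ndn, Magel2, Mkrn3 and Peg12).

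The other 4 contrasts were made within a line or a pair of lines. Gut against midbrain (B4) gave 20 of 38 genes called higher in gut, where 26.6% of all genes were, and 8 called lower, where 24.1% were. Forebrain against neural tube (B8) gave 3 of 35 genes called higher, where 15% of all genes were, and 20 called lower, where 18.3% were. Face against heart (B3 and B5) gave 9 of 37 higher (30.1% of all genes) and 16 lower (30%). Lung against heart (B2) gave 14 of 37 higher (33.8% of all genes) and 10 lower (30.3%). Tissue and the set in which the libraries were made cannot be told apart in the last contrast, because the B2 lungs carry other library codes than all hearts and a far higher share of mitochondrial counts. With 2 libraries a group in B4 and B8, the p-values measure the spread between these samples only. These contrasts were chosen for this description and the wild-type libraries of each serve also in the contrast of neural with other tissues, so the 5 sets of calls are not independent. With the homozygous forebrains and neural tubes in place of the wild-type ones, 10 genes were called where the wild-type libraries gave 23. The share of all genes called in the homozygous libraries is not given here.

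**Figure D2:**
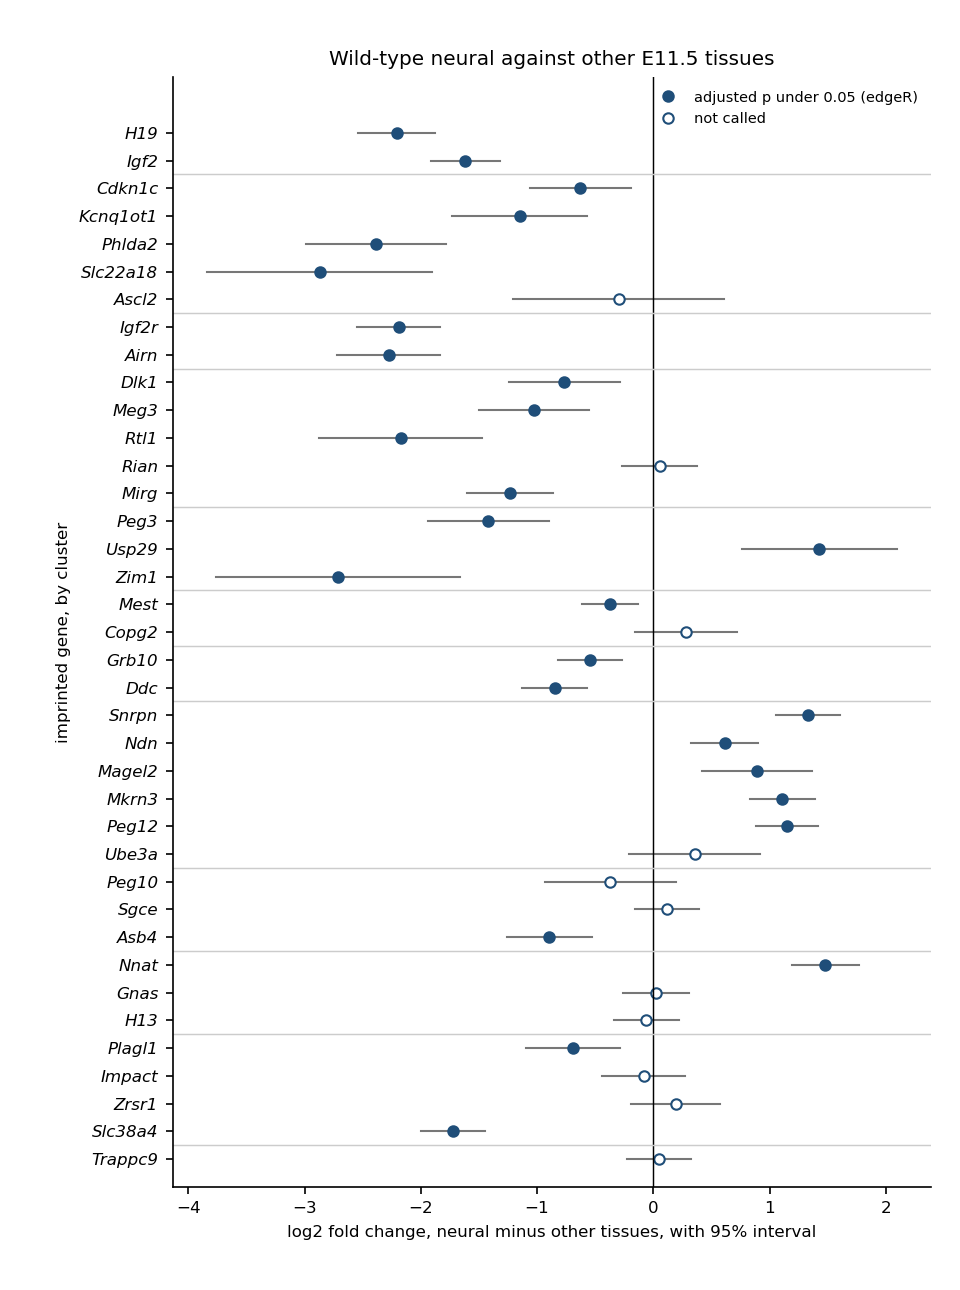
edgeR log2 fold change of each imprinted gene in wild-type neural tissues (forebrain, midbrain and neural tube) minus the other tissues (face, heart, lung and gut), with its 95% interval, grouped by cluster. Filled points were called at an adjusted p under 0.05 and open points were not. The points of H19, Igf2, Igf2r, Airn and Zim1 lie left of 0, and those of Nnat, Usp29 and the 6 genes of the Snrpn cluster lie right of it. Of these 6 genes, Ube3a was not called.

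Igf2, the insulin-like growth factor that drives growth of the embryo, and H19, a maternally expressed non-coding RNA, lie 88.7 kb apart on GRCm38 (chr7:142650766-142666816 and chr7:142575529-142578143) and share enhancers. By CPM both were highest in heart and lowest in forebrain and midbrain. By TPM the lowest median of Igf2 was that of lung, at 298, against 365 in forebrain and 529 in midbrain. In wild-type gut, Igf2 stood at 3201 and 3183 CPM and H19 at 5445 and 5198, against 658 and 453 (Igf2) and 793 and 587 (H19) in the wild-type midbrains of the same line. The groups did not overlap, and both genes were called higher in gut (Igf2 log2 fold change 2.52, SE 0.19, edgeR adjusted p = 9.33e-05, H19 2.94, SE 0.16, adjusted p = 3.03e-05). The gut libraries held 4514 and 4659 CPM of liver markers, against 0.28 and 14.6 in the midbrains, in which 1 of the 7 liver markers was at 0 in both. The fetal liver is a known source of both RNAs, and its part in the difference was not tested.

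The same pair separated the 2 neural tissues of line B8. Igf2 stood at 440 and 404 CPM in the wild-type forebrains and at 3302 and 3073 in the neural tubes, and H19 at 624 and 616 against 5110 and 5369. Both were called lower in forebrain (Igf2 -2.95, SE 0.08, adjusted p = 4.42e-06, H19 -3.11, SE 0.06, adjusted p = 2.01e-06, edgeR). The neural tube libraries also held 6 skeletal muscle markers at 529.6 and 600.6 CPM in sum, against 5.45 and 5.63 in the forebrains, where 2 of the 6 were at 0 in both, and 5 mesenchyme markers at 2085 and 2665 against 981 and 1341. The part of these other tissues was not tested.

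Igf2 stood at 8119, 7684, 8072 and 8118 CPM in the 4 wild-type hearts of B2 and at 7948, 5988, 7861 and 7272 in those of B3 and B5. The wild-type faces of B3 and B5 held 2337, 1957, 2171 and 2026 CPM, and the 6 wild-type lungs 880.5 to 1895 (median 967). Heart and face did not overlap, nor did heart and lung. Igf2 was called lower in face than in heart (-1.75, SE 0.12, edgeR adjusted p = 2.58e-06) and in lung than in heart (-2.77, SE 0.24, adjusted p = 1.58e-06). H19 followed it in both contrasts, called at -1.73 (SE 0.16) and -1.34 (SE 0.25). H19 counts per Igf2 count had medians between 1.25 in midbrain and 1.82 in the hearts of B2, and 5.17 (range 2.85 to 6.82) in the lungs, whose lowest value lay above the highest of any other wild-type tissue, 1.945 in a face. The highest Igf2 and the lowest H19 per Igf2 among these lungs, 1895 CPM and 2.85, both came from E5420_09. Igf2 stood at 880.5 to 976 CPM and H19 per Igf2 at 4.84 to 5.28 in the 4 lungs other than E5420_07 and E5420_09.

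Igf2r (chr17:12682406-12769664) encodes the receptor that takes up IGF2 and sends it to the lysosome, and Airn (chr17:12741311-12860136) is the paternally expressed antisense RNA, sharing 28354 bases with the gene, that silences its paternal copy. Igf2r was highest in the hearts of B3 and B5, at 1564 and 1106 CPM (B3) and 962 and 864 (B5), then in lung (725 to 838, median 791) and in the hearts of B2 (597, 705, 669 and 575). It was lowest in midbrain, at 46.2 and 53.0. The face libraries of B3 held 88.7 and 68.9 and those of B5 83.0 and 101.2, far below every heart, and the face-heart difference was the largest of any called imprinted gene in that contrast (-3.67, SE 0.20, edgeR adjusted p = 5.35e-07). Airn stood at 10.2, 8.31, 9.66 and 8.93 CPM in the 4 hearts of B3 and B5 and at 2.11, 2.30, 2.41 and 2.28 in the 4 faces, and was called lower in face as well (-2.003, SE 0.15, adjusted p = 3.57e-06).

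Igf2r and Airn were both called in the same direction in 4 of the 5 contrasts, the exception being lung against heart, in which neither was called (Igf2r 0.30, SE 0.14, edgeR adjusted p = 0.0734, Airn -0.05, SE 0.27, adjusted p = 0.88). Airn stood at 2.67 and 3.60 CPM in the neural tubes and 0.592 and 0.453 in the forebrains (-2.61, SE 0.34, adjusted p = 0.00169). Airn counts came to between 0.728% (forebrain) and 2.87% (neural tube) of the Igf2r counts in the tissue medians. The source used here states no strand setting for the counting, and without one reads of the 2 genes in their shared stretch cannot be told apart. Of the 38 genes, 22 are overlapped by another annotated gene, 7 of them by a gene at over 10% of their own level (Airn, Kcnq1ot1, Copg2, Ube3a, Nnat, H13 and Zrsr1), and their counts are uncertain to that extent. The ligand and its receptor did not hold a fixed ratio, with 0.0355 Igf2r counts per Igf2 count in neural tube, 0.0488 in face, 0.154 in the hearts of B3 and B5 and 0.80 in lung.

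**Figure D3:**
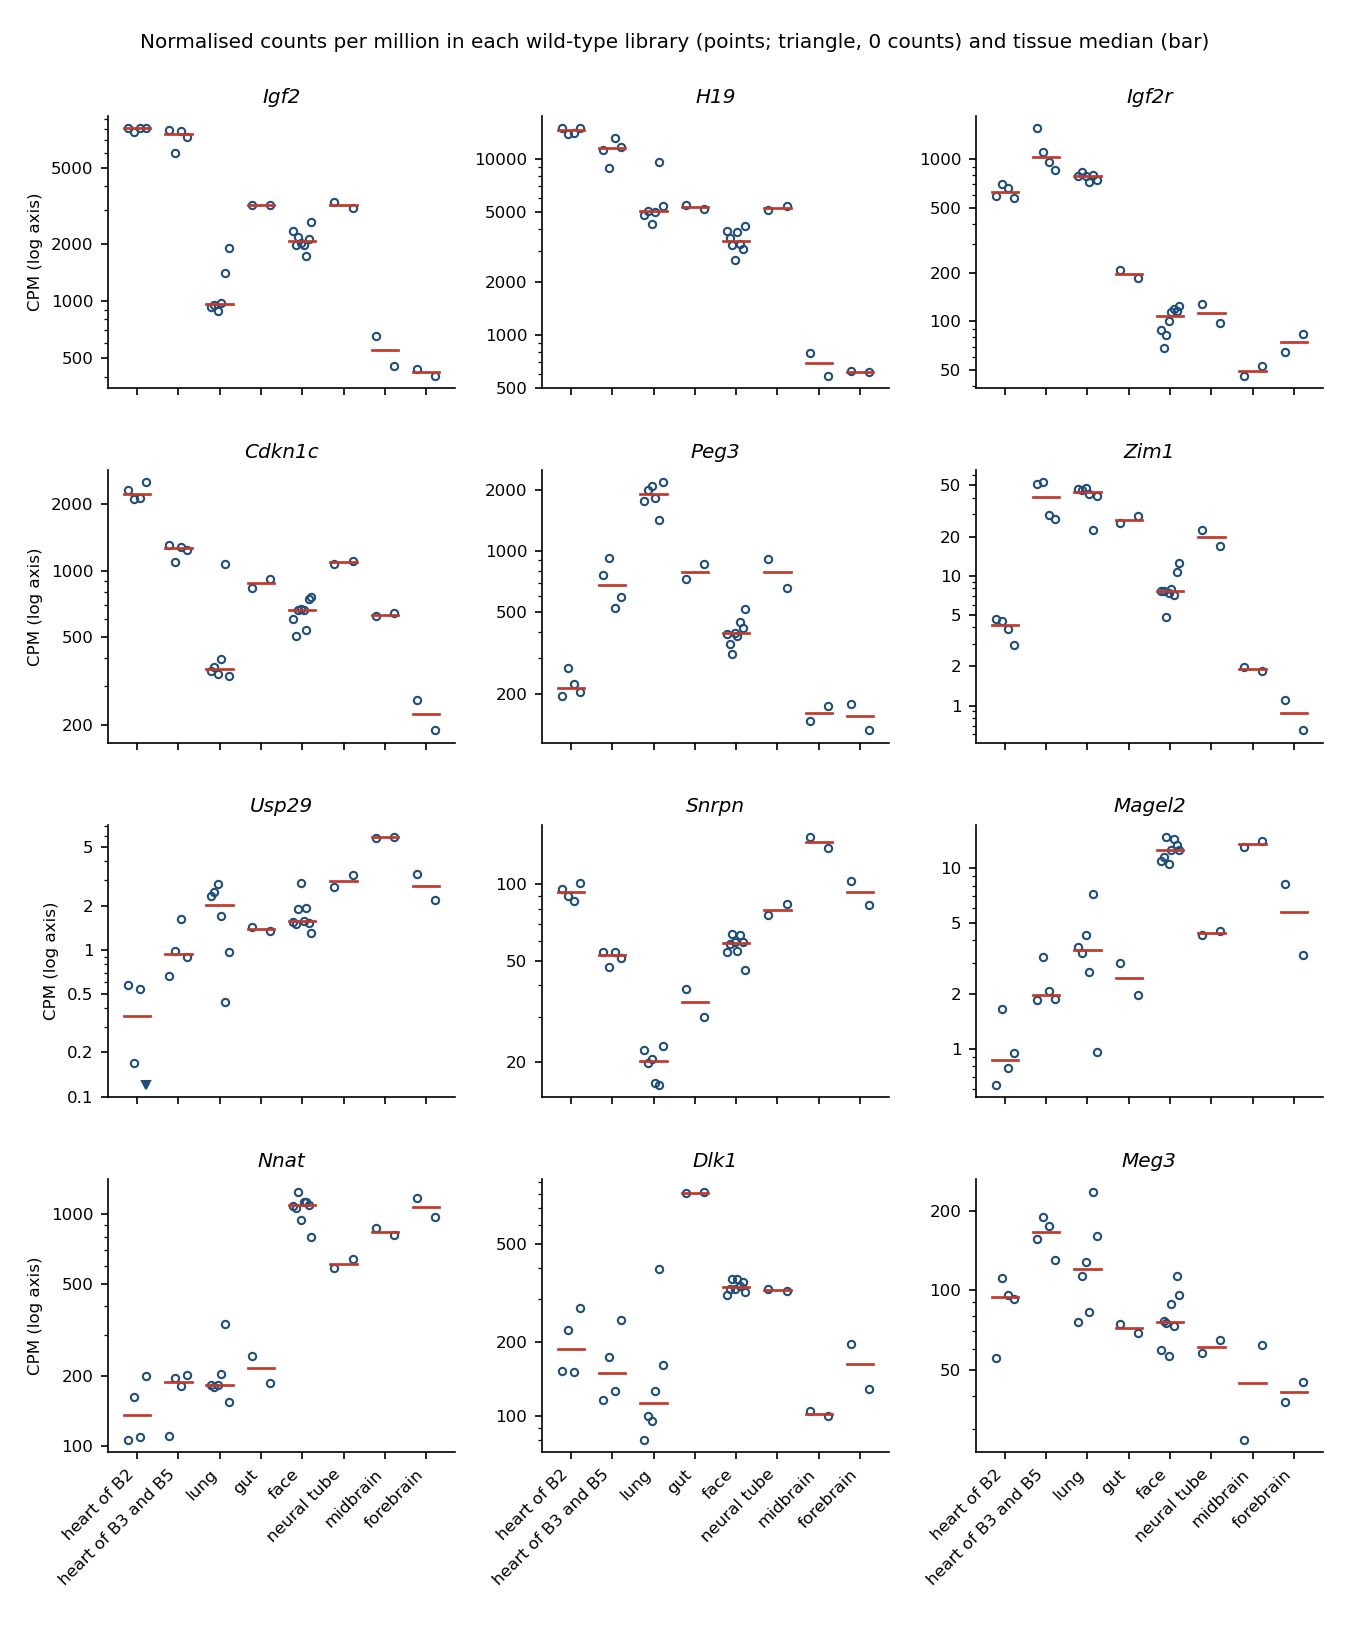
CPM on a log axis of 12 imprinted genes in each wild-type library (points, a triangle for a library with 0 counts) with the median of each tissue (bar). The points of Igf2 and H19 lie highest in the hearts and lowest in midbrain and forebrain, those of Peg3 and Zim1 are lower in the hearts of B2 than in the other hearts, and those of Snrpn are highest in midbrain and lowest in lung.

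The Kcnq1 cluster holds Cdkn1c, an inhibitor of the cell cycle, Phlda2, which restrains growth of the placenta, the transporter Slc22a18, the transcription factor Ascl2 and the paternally expressed non-coding RNA Kcnq1ot1. Cdkn1c was the most abundant of them, at 2333, 2104, 2138 and 2513 CPM in the wild-type hearts of B2 against 334 to 1075 (median 357) in the lungs of that line, of which 5 lay under 400 and E5420_07 at 1075. It was called lower in lung (-2.25, SE 0.33, edgeR adjusted p = 0.000114) and lower in forebrain (258 and 188 CPM) than in neural tube (1074 and 1104), with a log2 fold change of -2.32 (SE 0.15, adjusted p = 8.4e-05).

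Phlda2 and Slc22a18 were scarce everywhere, with Phlda2 at no more than 2.64 CPM and Slc22a18 at no more than 2.51 in any wild-type library. Both were nonetheless called higher in gut than in midbrain. Phlda2 stood at 2.64 and 1.58 CPM in gut and 0.139 and 0.0378 in midbrain (4.55, SE 0.70, edgeR adjusted p = 0.00216), and Slc22a18 at 2.18 and 1.95 against 0.185 and 0.0757 (3.97, SE 0.58, adjusted p = 0.0017). Slc22a18 was also called lower in the B2 lungs (0 to 0.951 CPM, median 0.25) than in the B2 hearts (1.52, 2.51, 1.02 and 2.41), at -2.30 (SE 0.53, adjusted p = 0.00259). Ascl2 stayed at or under 0.564 CPM in every wild-type library and was called in none of the 2 contrasts that kept it.

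Kcnq1ot1 behaved differently from the protein-coding genes around it. It stood at 13.5 to 100.8 CPM (median 55.5) in the 6 wild-type lungs and at 1.47, 1.71, 2.03 and 1.10 in the hearts of B2, with no overlap (log2 fold change 5.10, SE 0.54, edgeR adjusted p = 8.42e-06). All other wild-type libraries lay between 1.05 and 4.57 CPM, so that the high level was seen only in the set of lungs, including their homozygous counterparts (44.8 to 97.7). The lowest lung, 13.5 CPM, was E5420_07, the wild-type library with 0.362% mitochondrial counts. Kcnq1, whose gene Kcnq1ot1 overlaps, also gave over 10% of the median level of Kcnq1ot1, so that unstranded reads of the 2 could not be told apart.

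At the Dlk1-Meg3 cluster, Dlk1, a membrane protein of the Notch ligand type, and Rtl1, derived from a retrotransposon, are expressed from the paternal copy, and the non-coding RNAs Meg3, Rian and Mirg from the maternal one. Dlk1 lies at chr12:109452823-109463336 and Meg3 at chr12:109541001-109571726, with 57 microRNA hairpins between Dlk1 and the end of Mirg. Dlk1 was highest in gut, at 805 and 819 CPM against 105 and 100 in the midbrains of the same line (2.98, SE 0.10, edgeR adjusted p = 6.86e-06). The faces of B3 and B5 held 312, 329, 363 and 330.2 CPM and the hearts 117, 174, 127 and 246, called higher in face (1.04, SE 0.20, adjusted p = 0.00148). Fetal liver is known for strong Dlk1 expression, and the liver markers of the gut libraries given above move with this difference, whose part was not tested.

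Meg3 was highest in the hearts of B3 and B5, at 157, 189, 176 and 131 CPM, and stood at 37.9 and 44.9 in the wild-type forebrains and 57.8 and 64.7 in the neural tubes. Forebrain was called lower than neural tube for all 5 genes of the cluster, Dlk1 at -1.04 (SE 0.18, edgeR adjusted p = 0.00551) and Meg3 at -0.60 (SE 0.11, adjusted p = 0.00632). The paternally expressed Dlk1 and the maternally expressed Meg3 did not keep a fixed proportion over tissues, with 0.0886 Meg3 counts per Dlk1 count in gut, 0.188 in neural tube and 1.21 in the hearts of B3 and B5.

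Rtl1 and Mirg were high in the lungs. Rtl1 stood at 16.5 to 56.3 CPM (median 28.5) in the wild-type lungs and at 0.629, 0.968, 0.538 and 1.15 in the hearts of B2 (5.23, SE 0.41, edgeR adjusted p = 8.29e-07), the largest difference of any imprinted gene in that contrast. Mirg stood at 25.7 to 46.6 CPM against 4.77 to 10.6 (2.36, SE 0.27, adjusted p = 1.72e-05). RefSeq places 6 microRNA hairpins on the strand opposite to Rtl1 and 14 within Mirg. Rian was called neither in neural against other tissues (0.05, SE 0.16, adjusted p = 0.822) nor in face against heart (0.14, SE 0.08, adjusted p = 0.171).

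Of the 3 genes of the Peg3 cluster, Usp29 was called in the direction opposite to the other 2 in 3 of the 5 contrasts and in the same direction in lung against heart. Peg3, a zinc finger gene expressed from the paternal copy, and Zim1, its maternally expressed neighbour 34 kb away, were both called lower in neural than in other tissues (-1.42, SE 0.26, edgeR adjusted p = 3.82e-05 and -2.71, SE 0.51, adjusted p = 6.92e-05). Usp29, a ubiquitin protease gene that starts from the shared Peg3 window printed above and is expressed from the same copy, was called higher (1.43, SE 0.32, adjusted p = 0.000616). The neural tube alone was not low, with medians of 785 CPM for Peg3 and 19.8 for Zim1. These lay above face (396 and 7.65) and the hearts of B2 (214 and 4.19), and below gut (792 and 27.1) and lung (1902 and 44.5). The hearts of B3 and B5 held 678 and 40.2. In line B4, Peg3 stood at 726 and 859 CPM in gut and 147 and 175 in midbrain (2.29, SE 0.14, adjusted p = 4.07e-05). Usp29 gave the opposite order, at 1.44 and 1.35 CPM in gut and 5.79 and 5.87 in midbrain (-2.06, SE 0.28, adjusted p = 0.00124). Neither pair of groups overlapped. Face against heart gave -0.90 for Peg3 (SE 0.14, adjusted p = 0.000412) and 0.93 for Usp29 (SE 0.29, adjusted p = 0.0186). In lung against heart Usp29 was called higher (2.57, SE 0.72, edgeR adjusted p = 0.00832), as were Peg3 and Zim1, whose values follow.

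Zim1 had the largest log2 difference of any imprinted gene between forebrain (1.11 and 0.642 CPM) and neural tube (22.4 and 17.1), at -4.53 (SE 0.29, edgeR adjusted p = 8.9e-05). It stood at 25.3 and 28.9 CPM in gut against 1.99 and 1.85 in midbrain (3.81, SE 0.19, adjusted p = 2.02e-05), and at 7.63, 7.67, 4.83 and 7.42 in the faces of B3 and B5 against 51.1, 52.4, 29.2 and 27.3 in their hearts (-2.46, SE 0.16, adjusted p = 1.65e-06). Peg3 also separated forebrain (179 and 132 CPM) from neural tube (910 and 661, -2.37, SE 0.20, adjusted p = 0.000266). Zim1 counts came to 0.552% of the Peg3 counts in forebrain and 5.62% in the hearts of B3 and B5.

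The wild-type hearts of line B2 stood apart from those of B3 and B5 at this cluster, and not only there. Without overlap they were also lower in Ube3a (14.6 to 19.3 CPM against 42.2 to 82.8) and higher in Gnas (2325.5 to 2561 against 1373 to 1652). Irs2, outside the imprinted set, stood at 1.68 to 3.46 CPM against 24.6 to 38.05. Igf2 and Dlk1 overlapped between the sets. The share of all genes without overlap is not given here, so the difference does not single out this cluster. Peg3 was at 195, 268, 223 and 205 CPM and Zim1 at 4.67, 4.50, 3.89 and 2.94 in the wild-type hearts of B2, against 523 to 925 and 27.3 to 52.4 in those of B3 and B5, with no overlap. Both genes were called higher in the B2 lungs (Peg3 1413 to 2165 CPM, median 1902, and Zim1 22.6 to 47.4, median 44.5) than in the B2 hearts, at 3.07 (SE 0.20, edgeR adjusted p = 1.99e-07) and 3.38 (SE 0.26, adjusted p = 7.92e-07). With the wild-type hearts of B3 and B5 in place of those of B2, a comparison added after the data were seen, the Zim1 difference was 0.08 and was not called.

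At the Snrpn cluster, whose human counterpart is lost in Prader-Willi and Angelman syndromes, 5 paternally expressed genes were called higher in neural than in other tissues, and the maternally expressed Ube3a, a ubiquitin ligase imprinted in neurons, was not called (0.36, SE 0.28, edgeR adjusted p = 0.305). Snrpn, which encodes a splicing protein of neurons, stood at 153.3 and 139.2 CPM in the wild-type midbrains and 38.9 and 30.02 in the guts (-2.09 in gut minus midbrain, SE 0.15, adjusted p = 9.07e-05). Magel2 stood at 13.2 and 14.2 CPM in midbrain and 2.97 and 1.99 in gut (-2.48, SE 0.26, adjusted p = 0.000396). The neuron markers of the 2 tissues moved with them, at 2384 and 2381 CPM in sum over 5 genes in midbrain and 72.4 and 38.8 in gut, none of them at 0, and their part was not tested. Of the 5 genes called, only Mkrn3 and Peg12 had higher medians in each neural tissue than in any other. Snrpn had medians of 93.0 CPM in the hearts of B2, 93.0 in forebrain and 79.4 in neural tube. Those of Ndn were 236.6, 216.5 and 225.7. Magel2 had medians of 12.6 CPM in face, 5.73 in forebrain and 4.38 in neural tube.

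The cluster was not silent outside the nervous system. Magel2, which encodes a protein of the MAGE family, stood at 10.9, 11.5, 14.9 and 10.6 CPM in the 4 wild-type faces of B3 and B5, against 1.86, 3.24, 2.09 and 1.88 in their hearts (2.42, SE 0.22, edgeR adjusted p = 1.53e-05). Mkrn3, which encodes a ring finger protein, stood at 6.43, 7.11, 7.50 and 7.01 CPM in those faces and 2.43, 4.46, 4.25 and 3.15 in the hearts (0.99, SE 0.21, adjusted p = 0.00246), and at 12.2 and 14.9 in midbrain against 4.59 and 4.85 in gut (-1.53, SE 0.20, adjusted p = 0.00115). The faces of B3 and B5 held 459.6 to 734.9 CPM of neuron markers against 22.4 to 49.9 in the hearts, and the part of neurons was not tested.

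Peg12, a small intronless gene of the same cluster, was the only imprinted gene with its highest median in forebrain, at 108.0 and 109.8 CPM against 51.8 and 51.7 in the neural tubes, with no overlap (1.04, SE 0.08, edgeR adjusted p = 0.000167). It was also called higher in face (53.1, 59.1, 49.8 and 59.6 CPM in B3 and B5) than in heart (19.9, 27.1, 17.2 and 27.03), at 1.298 (SE 0.15, adjusted p = 7.77e-05). In lung against heart Snrpn and Ndn were called lower and the other 4 genes of the cluster (Mkrn3, Peg12, Magel2 and Ube3a) higher. With the hearts of B3 and B5 the lungs overlapped for Ube3a and Magel2, and not for Mkrn3 and Peg12. Ube3a had medians of 17.3 CPM in the hearts of B2, 62.7 in those of B3 and B5 and 109.5 in lung. Snrpn stood at 16.2 to 23.1 CPM (median 20.2) in the wild-type lungs and 95.8, 90.1, 86.0 and 101.1 in the hearts of B2 (-2.25, SE 0.14, adjusted p = 1.7e-07), and Ndn, whose protein is known as a growth suppressor of neurons, at 103 to 244 (median 131) in the lungs and 217 to 245 in the hearts (-0.68, SE 0.22, adjusted p = 0.0162). The 2 groups overlapped for Ndn through E5420_07, at 244 CPM. The counts of Snrpn overlap on the same strand with the annotated genes Snurf and Gm38393 and are uncertain to that extent.

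Nnat, Gnas and H13 lie far apart on chromosome 2. Nnat (chr2:157560078-157562522), a paternally expressed gene within an intron of Blcap, had the largest positive difference between face and heart of any imprinted gene tested. It stood at 1090.5, 1066, 1254 and 942 CPM in the wild-type faces of B3 and B5 and at 110.5, 197, 182 and 202 in their hearts, with no overlap (2.68, SE 0.19, edgeR adjusted p = 2.76e-06). It was also called higher in midbrain (870 and 811 CPM) than in gut (245 and 187, -1.96 in gut minus midbrain, SE 0.15, adjusted p = 0.000115), and in forebrain (1175 and 974) than in neural tube (584 and 643, 0.77, SE 0.10, adjusted p = 0.00181). Only the faces overlapped the neural tissues, since the highest library of heart, lung and gut stood at 336.1 CPM.

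Gnas, which encodes the stimulatory G protein alpha subunit and is imprinted in only a few tissues, and H13, a signal peptide peptidase gene, were called in few contrasts. Neither was called in neural against other tissues (Gnas 0.02, SE 0.14, 95% interval -0.26 to 0.30, H13 -0.06, SE 0.14), nor in gut against midbrain or face against heart. Gnas was called lower in forebrain than in neural tube (-0.45, SE 0.06, edgeR adjusted p = 0.00181), where H13 was not called (-0.24, SE 0.07, adjusted p = 0.0504). Both were called lower in the B2 lungs than in the B2 hearts, Gnas at 628 to 1360 CPM (median 762) against 2325.5 to 2561 (-1.53, SE 0.21, edgeR adjusted p = 7.45e-05) and H13 at -0.72 (SE 0.20, adjusted p = 0.00872).

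Partner genes at 2 further clusters were called in opposite directions in some contrasts. Mest, which encodes a paternally expressed hydrolase-like enzyme, and Copg2, a coatomer subunit gene whose end overlaps that of Mest by 912 bases, were called in opposite directions in gut against midbrain (Mest 0.83, SE 0.10, edgeR adjusted p = 0.000858, Copg2 -0.75, SE 0.10, adjusted p = 0.00118) and in forebrain against neural tube (Mest -0.45, SE 0.06, adjusted p = 0.00265, Copg2 0.40, SE 0.08, adjusted p = 0.0116). Copg2 stood at 131.2 and 126.1 CPM in forebrain and 89.6 and 100.2 in neural tube. Mest was highest in the hearts of B2, at 3988, 3137, 4212 and 3637 CPM against 705 to 1092 (median 978) in the lungs (-1.97, SE 0.18, adjusted p = 2.67e-06).

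Peg10, a retrotransposon-derived gene needed for the placenta, and Sgce, which encodes epsilon-sarcoglycan, start 99 bases apart on opposite strands and are both expressed from the paternal copy. In the B2 lungs Peg10 was called higher than in the B2 hearts (269 to 563 CPM, median 469, against 46.4, 83.7, 57.7 and 52.9, 2.91, SE 0.26, edgeR adjusted p = 2.48e-06) while Sgce was called lower (-1.60, SE 0.22, adjusted p = 6.79e-05). Peg10 stood at 149 to 327 CPM in the hearts of B3 and B5, which overlapped the lungs. The 2 genes were also called in opposite directions in face against heart (Peg10 0.84, SE 0.18, adjusted p = 0.00243, Sgce -0.53, SE 0.10, adjusted p = 0.00135). Asb4, a maternally expressed gene for an ankyrin repeat protein, stood at 145 and 164 CPM in gut and 16.8 and 18.7 in midbrain (3.11, SE 0.12, adjusted p = 9.95e-06).

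Grb10 encodes an adaptor that restrains signalling from the insulin and IGF1 receptors, and Ddc, next to it, the enzyme that makes dopamine from DOPA. Grb10 was abundant in every tissue, with medians from 744 CPM in midbrain to 1811 in lung, and Ddc ranged from 3.56 in forebrain to 26.1 in lung. Ddc was called lower in face (6.43, 5.45, 5.46 and 5.11 CPM) against heart (22.2, 20.5, 23.5 and 27.3), at -2.04 (SE 0.13, edgeR adjusted p = 1.61e-06), as was Grb10 (-0.41, SE 0.09, adjusted p = 0.0036). Both genes were also called lower in forebrain than in neural tube and in neural than in other tissues, and Grb10 alone was called in gut against midbrain and lung against heart, higher in both. The median of Grb10 was 945 CPM in the hearts of B2 and 1702 in those of B3 and B5, which overlapped the lungs. Paternal expression of Ddc is known from the embryonic heart.

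Among the genes outside clusters, Slc38a4, an amino acid transporter gene, was called lower in neural than in other tissues (-1.72, SE 0.14, edgeR adjusted p = 1.99e-11), with 23.5 and 25.3 CPM (medians) in midbrain and forebrain against 65.1 in face and 224.7 in the hearts of B3 and B5. Plagl1, a zinc finger transcription factor, was called lower as well (-0.69, SE 0.20, adjusted p = 0.00472). Impact, Zrsr1 and Trappc9 were not called, with log2 fold changes of -0.08 (SE 0.17), 0.19 (SE 0.19) and 0.05 (SE 0.14).

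Grouped by the parental copy that is known to be expressed, the maternally expressed genes were called in a single direction in 4 of the 5 contrasts. In neural against other tissues 9 of 11 were called lower and 0 higher, with a median log2 fold change of -1.24, and in gut against midbrain 9 of 11 were called higher and 0 lower (median 1.98). In forebrain against neural tube all 8 that passed the filter on low counts were called lower (median -1.21), and in face against heart 7 of 10 were called lower and 0 higher (median -1.09). In lung against heart 3 of 10 were called higher and 3 lower (median 0.43). Of the paternally expressed genes, 7 of 20 were called higher and 9 lower in neural tissues (median -0.23), 10 higher and 7 lower in gut against midbrain (median 0.15), 2 higher and 9 lower in forebrain against neural tube (median -0.29), 9 higher and 7 lower in face against heart (median 0.14) and 9 higher and 5 lower in lung against heart (median 0.64). The percentages of all genes called in each contrast are those given above, and their medians lay between -0.06 and 0.08. The 2 groups were not tested against each other, and several of the maternally expressed genes share a cluster. Of the 13 genes whose promoter lies in a germline methylated region, 3 were called higher in neural tissues and 6 lower (median -0.37).

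Genes that act with the imprinted ones were read from further lists, in neural against other tissues, where 22.2% of all genes were called higher and 25.4% lower. Of 16 genes of the IGF and insulin receptor axis, 1 was called higher in neural tissues (Igfbp2, which encodes a binding protein of the IGFs, 1.07, SE 0.20, edgeR adjusted p = 5.86e-05) and 7 lower, among them Igfbp6 (-2.89, SE 0.60), Igfbp3 (-1.39, SE 0.12) and Igf1 (-0.81, SE 0.18). Igf1r, the receptor that carries the growth signal of IGF2, was not called (-0.25, SE 0.14, adjusted p = 0.137). Of 12 genes that maintain imprints, Ctcf was called higher (0.50, SE 0.15, adjusted p = 0.00622) and Zfp57, whose protein guards methylated imprints, lower (-0.24, SE 0.09, adjusted p = 0.0209), and the other 10 were not called. Of 25 further imprinted genes that were tested, 5 were called higher, among them Nap1l5 (2.55, SE 0.23) and Inpp5f (1.503, SE 0.13), and 10 lower. Dio3, the deiodinase gene at the far end of the Dlk1-Meg3 cluster, was called higher in neural tissues (0.91, SE 0.23, adjusted p = 0.00153), where 4 of the 5 members of that cluster were called lower. Blcap, whose intron holds Nnat, was called higher together with it (0.75, SE 0.07, adjusted p = 1.61e-09).

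The boundary deletions were then compared with wild-type in 14 line and tissue combinations. None of the 38 genes overlaps a deletion. Members share a chromosome with a deletion only in lines B3 (Impact, 62.7 Mb away), B4 (Plagl1, 38.3 Mb away) and B6 (the 5 genes of the Dlk1-Meg3 cluster, the nearest 74.3 Mb away). edgeR called 0 of 513 member values over the 14 comparisons, in which it called 21 of 211544 values over all genes. The percentages of all genes called were 0.0131% in B3 face, 0.00677% in B4 midbrain, 0.0723% in B6 face, 0.0329% in B7 face and 0.0132% in B8 neural tube, and 0% in the other 9. At an unadjusted p under 0.05 stood 59 of the 513 member values (11.5%) and 7.41% of all values. With 2 against 2 libraries in most comparisons, the median over members of the distance from the estimate to either end of its 95% interval reached from 0.23 (B2 heart) to 0.79 (B5 heart) on the log2 scale.

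DESeq2 on the same genes called 6 member values in 3 comparisons, of which 4 were in B6 face, where it called 1.08% of all genes, 1 in B6 heart (4.42% of all genes) and 1 in B7 face (0.599%). In the other 11 comparisons together it called 0 member values and 0.252% of all values. Of the 6 values 3 were Igf2r. Since edgeR called none of them and all but Igf2r in B6 heart rest on 2 libraries against 2, they are given as values.

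**Figure D4:**
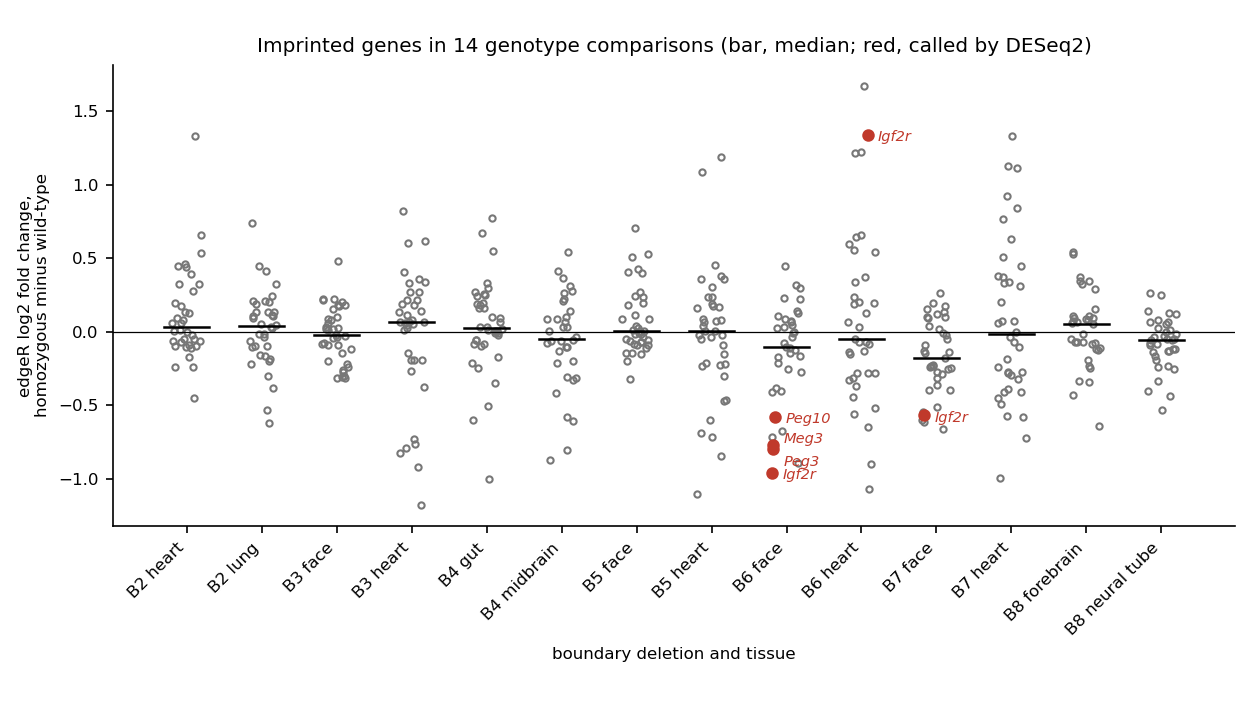
edgeR log2 fold change, homozygous minus wild-type, of each imprinted gene tested (points) in the 14 comparisons of deletion line and tissue, with their median (bar). Red points with names are the 6 values that DESeq2 called, and edgeR called none. The medians lie between -0.18 (B7 face) and 0.07 (B3 heart).

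In B6 face, Igf2r stood at 78.6 and 46.7 CPM in the homozygous libraries A5 and A7 and at 116.4 and 124.6 in the wild-type libraries A27 and A28 (edgeR log2 fold change -0.96, SE 0.23, adjusted p = 0.294, DESeq2 adjusted p = 0.00154). Peg3 stood at 338.2 and 206.7 against 419.7 and 520.8 (-0.80, SE 0.23, edgeR adjusted p = 0.413, DESeq2 0.0146), and Meg3 at 54.3 and 69.8 against 113.3 and 96.0 (-0.77, SE 0.16, 0.251 and 0.00219). Peg10 was at 288.6 and 221.5 against 359.5 and 396.7 (-0.58, SE 0.15, 0.354 and 0.039). In each case both homozygous libraries lay below both wild-type ones. Such separation was common, since the genotypes did not overlap for 19 of the 37 members tested in B6 face. Over the 14 comparisons it held for 156 of 513 member values. The shares of all genes without overlap are not given here, so these counts do not single out imprinted genes. For Igf2r and Peg3 library A5 lay within the range of the other wild-type faces, which was 68.9 to 119.2 for Igf2r and 312.6 to 450.7 for Peg3, and library A7 lay below it.

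Other features of these 4 libraries moved with the genotype. Mesenchyme markers (5 genes) summed to 1827 and 1511 CPM in the homozygous faces of B6 and 2194 and 2572 in the wild-type ones, the 6 skeletal muscle markers to 80.7 and 65.3 against 128.5 and 170.8, and neuron markers to 578 and 617 against 529 and 462. Mitochondrial counts made up 0.66% and 0.48% against 1.17% and 1.06%. The part of these features was not tested. Of the 37 members tested in B6 face 14 had a log2 fold change above 0, with a median of -0.105, where the median of all genes was 0.01. Meg3 belongs to the cluster on the chromosome of the B6 deletion, and its neighbours Dlk1 (384.6 and 328.2 against 351.4 and 321.0 CPM) and Rian (207.4 and 250.7 against 227.0 and 228.8) overlapped between genotypes.

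In B7 face, Igf2r stood at 69.9 and 88.5 CPM in the homozygous libraries and 114.2 and 119.2 in the wild-type ones (-0.57, SE 0.11, edgeR adjusted p = 0.311, DESeq2 adjusted p = 0.00364). Both homozygous values lay within the range of the wild-type faces of B3 and B5. Over the 4 lines with faces, the direction of the Igf2r difference was not the same, with -0.22 (SE 0.14) in B3 and 0.43 (SE 0.15) in B5 beside the values of B6 and B7, none of which edgeR called.

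In B6 heart, Igf2r stood at 2362 and 2178 CPM in the homozygous libraries and at 575 to 1564 (median 784) in the 8 wild-type hearts of other lines, with no overlap (1.34, SE 0.29, edgeR adjusted p = 0.139, DESeq2 adjusted p = 0.00598). The homozygous hearts of B3, at 2219 and 1878 CPM, and of B7, at 1702 and 1705, also lay above all 8 wild-type hearts, while those of B5, at 743 and 1142, did not. In B3, the only one of these 3 lines with wild-type hearts of its own, the difference was 0.61 (SE 0.21, edgeR adjusted p = 0.524) and was not called by DESeq2 either (adjusted p = 0.145). Against the wild-type hearts of B3 and B5 alone edgeR called 0 members in B6 and B7 heart. Against those of B2 alone it called 24 and 25, so the outcome depended on which line supplied the wild-type hearts. The shares of all genes called in these fits are not given here, so the counts do not single out imprinted genes.

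Single hearts carried RNA of other tissues, and imprinted genes moved with it. Homozygous heart A21 of B5 held 447.4 CPM of neuron markers, against 14 to 49.9 in the other 19 hearts, and 355.9 of face markers, against 12.1 in the other homozygous heart of B5, A22. None of the 5 neuron and 6 face markers was at 0 in either. A21 and A22 also differed in heart markers, at 5970 and 14502 CPM, and in erythroid markers, at 8915 and 129943. Over the 20 hearts the erythroid markers ranged from 8915 CPM in A21 to 134612 in A4. Nnat stood at 702.1 CPM in A21 and 118.5 in A22, Magel2 at 8.31 and 0.772, and Peg12 at 42.1 and 14.9, while Igf2 was at 5429.8 and 10703 and H19 at 6739 and 17698. Homozygous heart A58 of B2 held 1227 CPM of liver markers, with all 7 above 0, against 0.906 to 182.3 in the other 19 hearts, and had the highest Dlk1 of all hearts, 510.9 CPM, where the other 3 homozygous hearts of B2 lay between 161.7 and 216.2. A58 also held 140 CPM of face markers, 321 of epithelium markers and 2565 of mesenchyme markers. The other hearts of B2 held at most 25.4, 149.4 and 1747. The part of the other tissues and of the erythroid RNA in these values was not tested.

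**Figure D5:**
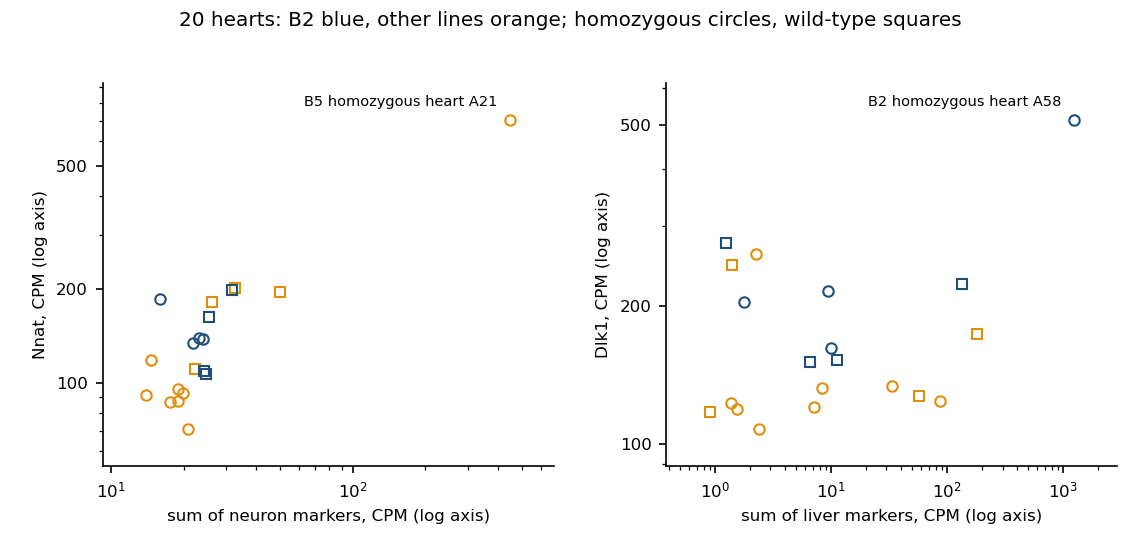
Nnat against the sum of 5 neuron markers (left) and Dlk1 against the sum of 7 liver markers (right) in the 20 hearts, in CPM on log axes, with hearts of B2 in blue, those of other lines in orange, homozygous hearts as circles and wild-type hearts as squares. Heart A21 stands alone at the upper right of the left panel and heart A58 at that of the right panel.

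For the 5 lines with both genotypes in both tissues, the difference of the genotype effect between the tissues was tested as an interaction term. edgeR called 0 members in each, and over all genes 0.0311% in B3 and 0% in B2, B4, B5 and B8. The counts of members at an unadjusted edgeR p under 0.05 were 8 of 38 in B3, 2 of 37 in B2, 2 of 38 in B4, 1 of 38 in B5 and 0 of 36 in B8. Of all genes, 9.12% stood under that threshold in B3, 3.02% in B2, 4.40% in B4, 1.33% in B5 and 3.39% in B8.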

How the data were processed

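Total RNA was sequenced from 64 libraries of FVB mouse tissues at embryonic day 11.5. Per the labels and the study's methods the authors aligned paired reads to mm10 with STAR and counted them with RSEM on a gencode M4 annotation, and deposited expected counts and TPM (transcripts scaled by length and library size) per gene. The strand setting is not given in the sources used here. Expected counts were rounded, and 43346 Ensembl genes were kept, of which 42462 had a name in GENCODE M21 (the same build). Levels are CPM (counts scaled by library size) with TMM factors over 18339 genes. Comparisons used edgeR 4.0.16 (R 4.3.3), quasi-likelihood tests, filterByExpr and Benjamini-Hochberg adjustment, with adjusted p under 0.05 as the call, and DESeq2 1.42.0 as an alternative. TPM was used only to set levels of different genes side by side and to check the order of tissues. The face and heart contrast had the line as a further term, and each homozygous group was set against the wild-type libraries of its line and tissue.

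Members and gene lists were chosen with earlier results of these data known. Some genes are described with the value of every sample. In each direction of the 4 contrasts between single tissues these were up to 5 with the largest called difference. Only genes whose groups did not overlap were eligible, so for them the lack of overlap follows from the choice. The others were the values called by DESeq2, and the pairs Igf2 and H19, Igf2r and Airn, Dlk1 and Meg3, and Peg3 and Zim1. Parental expression, germline methylation and the roles of genes are background knowledge. None of 64 pairs of libraries within groups was identical. P-values measure the spread between the labelled samples. The fitting was tested on simulated data. Tables of chromosome contacts from 23 further samples were not used here. RefSeq sequences (GRCm38.p6) gave the start windows and microRNAs. Each library has its own replicate code, and only in B2 lung do codes of both genotypes share a prefix.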

Additional observations from a re-analysis of the deposited data

Results flagged for a closer look

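Within groups of 4 or 6 libraries, 141 combinations of an imprinted gene and a group were examined with Dixon's test for a single library that stands apart, which chance flags in about 1 of 20. It marked 20, of which 13 came from wild-type lung E5420_07 of line B2, the library with 0.362% mitochondrial counts, with 7385 CPM of mesenchyme markers against 2083 to 3366 in the other 11 lungs. In it H19 stood at 9607 CPM (4260.4 to 5407 in the other 5 wild-type lungs), Cdkn1c at 1075 (334 to 399), Dlk1 at 396 (80.5 to 162), Gnas at 1360.1 (628 to 811), Nnat at 336 (155 to 204), Ndn at 244 (103 to 144), H13 at 148 (72.8 to 80.0), Peg12 at 83.4 (40.5 to 51.4) and Trappc9 at 77.9 (29.9 to 36.2). It was lower than the others for Rian at 95.4 (250.3 to 325), Ube3a at 35.7 (99.5 to 119), Zim1 at 22.6 (41.5 to 47.4) and Copg2 at 14.2 (95.8 to 107).

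Homozygous lung E5403_10 of B2 stood apart in 4 genes, with H19 at 4235 CPM (4873 to 5102 in the other 5), Igf2 at 787 (889 to 920.01), Nnat at 174 (193 to 203) and Peg10 at 635 (367 to 464). Homozygous heart A58 of B2, the heart with liver markers at 1227 CPM, stood apart in Dlk1 at 511 (162 to 216 in the other 3) and Nnat at 186 (134 to 139). Wild-type heart A56 of B2 stood apart in Igf2 at 7684 (8072 to 8119 in the other 3). The part of the markers in these values was not tested.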

How the results depend on the processing

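The 5 tissue contrasts kept their counts of imprinted genes within 1.5 times under every alternative run but 1: with homozygous libraries in place of wild-type ones, 10 genes were called between forebrain and neural tube in place of 23. Leaving out 1 library at a time gave 23 to 25 calls for face against heart, 20 to 23 for forebrain against neural tube, 27 to 30 for gut against midbrain, 23 to 32 for lung against heart (32 without E5420_07) and 26 to 27 for neural against other tissues. With the hearts of B3 and B5 in place of those of B2, lung against heart gave 17. For these alternatives the shares of all genes called are not given here. Comparisons added after the data were seen gave 26 calls for neural against other tissues without all lungs and 29 without the lungs and the hearts of B2. Of 905 alternatives for the 64 values of named genes, 873 kept both direction and call, 21 became called, 11 lost the call and none changed direction.

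The genotype comparisons moved more. DESeq2 called 4 members in B6 face, 1 in B6 heart and 1 in B7 face, where edgeR called 0. With no filter on low counts edgeR called 5 in B3 face, 7 in B6 face, 3 in B7 face and 1 in B8 neural tube. Against the wild-type hearts of B2 alone it called 24 in B6 heart and 25 in B7 heart, and in a fit over all libraries 10 in each. Without 1 library at a time the calls ranged from 0 to 2 in B3 heart (without A14), 0 to 1 in B4 gut (A44), 0 to 4 in B4 midbrain (A37), 0 to 8 in B5 face (A20), 0 to 3 in B5 heart (A22), 1 to 4 in B6 face (4 without A5), 0 to 1 in B6 heart (A14), 0 to 5 in B7 face (A1), 0 to 3 in B8 forebrain (A29) and 0 to 3 in B8 neural tube (A35), and stayed at 0 to 0 in B2 heart, B2 lung, B3 face and B7 heart. Leaving out 1 of 2 libraries assumes that the one left varies like the other group. The causes were not tested. Other than for DESeq2, the shares of all genes called in these fits are not given here, so the counts do not single out imprinted genes. In B2 lung the library codes begin with E5403, E5406 or E5420 in both genotypes, and edgeR called 0 members with that prefix as a term (0 of 37 at an unadjusted p under 0.05) and 0 with the labelled sex as a term (2 of 36). No paired analysis was possible because no replicate code is shared between the groups of the other lines and tissues, and a prefix in B2 lung does not pair single libraries.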
